A study of Rattus norvegicus with 93 samples.

Results

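The data described here are 8 of 93 arrays of rat femur bone marrow: the 4 rats that received oxaliplatin and then topotecan (oxaliplatin/topotecan) and the 4 that received dextrose and then topotecan (D5W/topotecan), both killed 24 h after dosing. They were chosen by the drugs and the time that the sample labels give, and by no measured value. All were male Sprague-Dawley rats of 8 weeks, each hybridised to 1 array. Each rat had a pair of intravenous infusions of 30 minutes, set 30 minutes apart. The first was oxaliplatin (15 mg/kg, dissolved in 5% dextrose in water, D5W) in oxaliplatin/topotecan rats and D5W alone in D5W/topotecan rats, and the second was topotecan (4.7 mg/kg, in saline) in both groups. Every rat of the comparison had therefore received topotecan, and the groups differ in the oxaliplatin that preceded it. Further rats used below received oxaliplatin and then saline (oxaliplatin/NaCl, n = 4 at 24 h), both vehicles (D5W/NaCl, n = 3 at 24 h), the drugs in the other order (topotecan/oxaliplatin, n = 4 at 24 h) or topotecan and then D5W (topotecan/D5W, n = 3 at 24 h). The values are log2 RMA signals, a scale on which a difference of 1 is a fold of 2. Marrow is a mixture of cells, and in such bulk samples fewer cells of a type and less RNA per cell cannot be told apart.

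Oxaliplatin is a platinum compound that binds DNA and links bases within and between its strands. Topotecan holds topoisomerase I on DNA as a cleaved complex, which turns into a strand break when a replication fork meets it. Cells that carry such damage can stop before or during DNA replication and before mitosis, through checkpoint kinases and through the transcription factor p53. One p53 target, Cdkn1a (p21), inhibits cyclin-dependent kinases. Genes of mitosis are then repressed by complexes bound at a promoter element called the cell cycle genes homology region, whose letters are TTTGAA, often beside CCAAT boxes bound by NF-Y. Genes of DNA replication are more often governed through E2F sites. Bone marrow divides fast, and red cell precursors and the precursors of granulocytes and monocytes make up most of its dividing cells.

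At 24 h, marrow of oxaliplatin/topotecan rats had lower levels of genes of mitosis, DNA replication and ribosome assembly than marrow of D5W/topotecan rats, and higher levels of several p53 targets. The ficolin gene Fcnb was 12.5-fold lower, the carbonic anhydrase gene Car1 8.92-fold lower and the chemokine receptor gene Ccr2 4.99-fold lower, while Cdkn1a was 3.81-fold higher. Of 62 measured mitosis genes, 53 fell and 0 rose (59 lower and 1 higher at an unadjusted p under 0.05). Of 12532 probe sets, 77 were called changed, that is at a Benjamini-Hochberg adjusted p under 0.01 in limma and a fold above 2, and 67 of these were lower and 10 higher. They are 0.614% of all probe sets. Without the fold minimum 2110 probe sets passed (16.8%), 1926 lower and 184 higher.

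The comparison is tilted toward lower values. The median over 7810 genes, each standing for its probe set of highest mean, was -0.11 on the log2 scale, and 64.9% of genes lay below 0. The medians of the arrays ran from 8.94 to 9.06 in oxaliplatin/topotecan rats and from 9.06 to 9.17 in D5W/topotecan rats. When arrays were centred on their median, 53 probe sets were called, 20 higher and 33 lower (37.7% higher, against 13% in the values as deposited). A second quantile normalization gave 69 calls, 21 higher and 48 lower. Both rescalings moved the median over genes to near 0 (0.01 with centring and -0.02 with quantiles), so differences are best read against the median of -0.11. One rat also weighed on the count, since 123 probe sets were called without rat 65 of oxaliplatin/topotecan. Correlations between arrays ran from 0.978 to 0.985 within oxaliplatin/topotecan rats, from 0.962 to 0.983 within D5W/topotecan rats, and from 0.951 to 0.981 between the groups.

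The 3 largest falls were in genes of white and red blood cells. Fcnb (probe set 1387378_at, chromosome 3) encodes ficolin B, a sugar-binding protein of innate immunity made by granulocyte and monocyte precursors. Its signals were 9.81, 9.98, 8.61 and 9.23 in oxaliplatin/topotecan rats, against 13.04, 13.13, 13.00 and 13.05 in D5W/topotecan rats. The groups lay far apart, and the D5W/topotecan rats varied little among themselves. The difference was -3.65 (SE 0.23, limma adjusted p = 1.93e-14). Car1 (1372374_at, chromosome 2), which encodes carbonic anhydrase 1 of red cells, had signals of 7.78, 7.90, 8.16 and 7.21 in oxaliplatin/topotecan rats and 11.10, 10.30, 11.09 and 11.17 in D5W/topotecan rats. Every oxaliplatin/topotecan rat was lower than every D5W/topotecan rat, with rat 90 as the lowest of D5W/topotecan, and the difference was -3.16 (SE 0.25, limma adjusted p = 2.60e-11). Ccr2 (1387742_at, chromosome 8), the receptor by which monocytes leave the marrow, had signals of 6.46, 7.12, 7.42 and 7.84 in oxaliplatin/topotecan rats and 9.40, 9.02, 9.90 and 9.81 in D5W/topotecan rats. The groups again did not overlap (difference -2.32, SE 0.30, limma adjusted p = 2.58e-07).

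Bex4 (1373458_at, chromosome X), of the family of brain-expressed X-linked genes, had signals of 6.26, 6.07, 5.86 and 6.03 in oxaliplatin/topotecan rats and 8.17, 8.30, 8.26 and 8.33 in D5W/topotecan rats. This was a difference of -2.21 (SE 0.23, limma adjusted p = 7.60e-09) with little spread in either group. Tifab (1378418_at, chromosome 17), a relative of the signalling adaptor Tifa, had signals of 7.20, 6.92, 6.53 and 6.88 in oxaliplatin/topotecan rats against 8.50, 8.47, 8.43 and 8.40 in D5W/topotecan rats (difference -1.57, SE 0.19, limma adjusted p = 1.70e-07). Dnph1 (1368226_at, chromosome 9) encodes a hydrolase that removes damaged nucleotides from the pool for DNA synthesis. It had signals of 8.89, 8.08, 8.15 and 8.36 in oxaliplatin/topotecan rats and 9.79, 9.72, 10.08 and 9.94 in D5W/topotecan rats (difference -1.51, SE 0.13, limma adjusted p = 2.95e-10). Psat1 (1372665_at, chromosome 1), an enzyme of serine synthesis, had signals of 9.94, 9.03, 9.08 and 9.09 in oxaliplatin/topotecan rats and 10.54, 10.41, 11.14 and 10.76 in D5W/topotecan rats. Rat 65 stood above the other oxaliplatin/topotecan rats yet below every D5W/topotecan rat, and the difference was -1.43 (SE 0.26, limma adjusted p = 7.97e-05).

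Ska1 (1391317_at, chromosome 18), which helps couple kinetochores to spindle microtubules, had signals of 7.99, 7.92, 7.79 and 7.49 in oxaliplatin/topotecan rats and 9.28, 8.81, 9.54 and 9.01 in D5W/topotecan rats (difference -1.36, SE 0.17, limma adjusted p = 1.35e-07). Fam72a (1385816_at, chromosome 13), whose product binds the uracil glycosylase Ung, had signals of 6.86, 6.01, 6.13 and 6.11 in oxaliplatin/topotecan rats and 7.69, 7.24, 7.88 and 7.59 in D5W/topotecan rats (difference -1.32, SE 0.19, limma adjusted p = 2.78e-06). Rat 65 was again the highest of its group. Cmss1 (1372059_at, chromosome 11), named after a yeast protein of the small ribosomal subunit, had signals of 8.14, 7.69, 7.54 and 7.65 in oxaliplatin/topotecan rats and 8.98, 8.92, 9.26 and 9.03 in D5W/topotecan rats (difference -1.30, SE 0.15, limma adjusted p = 8.26e-08). None of these 10 genes had overlapping groups, and each gave p = 0.0286 in an exact two-sided permutation test of the 8 rats, the smallest that 70 splits allow. The genes were picked by this same difference, so the test is no independent support for them. Across all probe sets, 24.2% had groups that did not overlap, and 20.9% were lower without overlap.

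Only 5 genes were called higher through their probe set of highest mean. Cdkn1a (1388674_at, chromosome 20) had signals of 10.91, 11.00, 10.31 and 10.48 in oxaliplatin/topotecan rats and 8.94, 8.78, 9.06 and 8.19 in D5W/topotecan rats. All oxaliplatin/topotecan rats were higher, and the difference was 1.93 (SE 0.25, limma adjusted p = 2.98e-07). A second probe set of Cdkn1a gave 1.32. Mmp2 (1370301_at, chromosome 19), a gelatinase of connective tissue cells, had signals of 10.82, 11.05, 10.38 and 11.22 in oxaliplatin/topotecan rats and 9.22, 9.98, 9.07 and 9.57 in D5W/topotecan rats (difference 1.41, SE 0.30, limma adjusted p = 5.02e-04). Neil1 (1393654_at, chromosome 8), a DNA glycosylase of base excision repair, had signals of 10.80, 10.57, 10.63 and 11.03 in oxaliplatin/topotecan rats and 9.59, 9.44, 9.03 and 9.48 in D5W/topotecan rats. Its groups were well apart (difference 1.37, SE 0.21, limma adjusted p = 6.34e-06).

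Cyp26b1 (1384392_at, chromosome 4), which breaks down retinoic acid, had signals of 7.96, 8.92, 8.25 and 9.41 in oxaliplatin/topotecan rats and 7.43, 7.32, 7.17 and 7.53 in D5W/topotecan rats (difference 1.27, SE 0.34, limma adjusted p = 0.00452). The oxaliplatin/topotecan rats were widely spread, and the gene no longer passed when rat 66 or rat 72 of oxaliplatin/topotecan or rat 90 or rat 95 of D5W/topotecan was left out (differences of 1.18, 1.01, 1.26 and 1.21). Slc4a1 (1387656_at, chromosome 10), the anion exchanger band 3 of the red cell membrane, had signals of 11.35, 11.69, 11.95 and 11.55 in oxaliplatin/topotecan rats and 11.46, 10.71, 9.52 and 10.78 in D5W/topotecan rats. Here the groups overlapped, since rat 89 of D5W/topotecan stood above rat 65 of oxaliplatin/topotecan. The difference was 1.02 (SE 0.21, limma adjusted p = 2.84e-04), with p = 0.0571 in the exact two-sided permutation test. Neither Cyp26b1 nor Slc4a1 passed when only the 8 arrays were fitted. Through a probe set other than that of highest mean, the peptide hormone gene Apln was called higher (1.45, against 0.50 for its probe set of highest mean), as was the alarmin gene Il33 (1.08, against 0.86), and Wdr36 was called lower (-1.11, against -0.45).

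**Figure D1:**
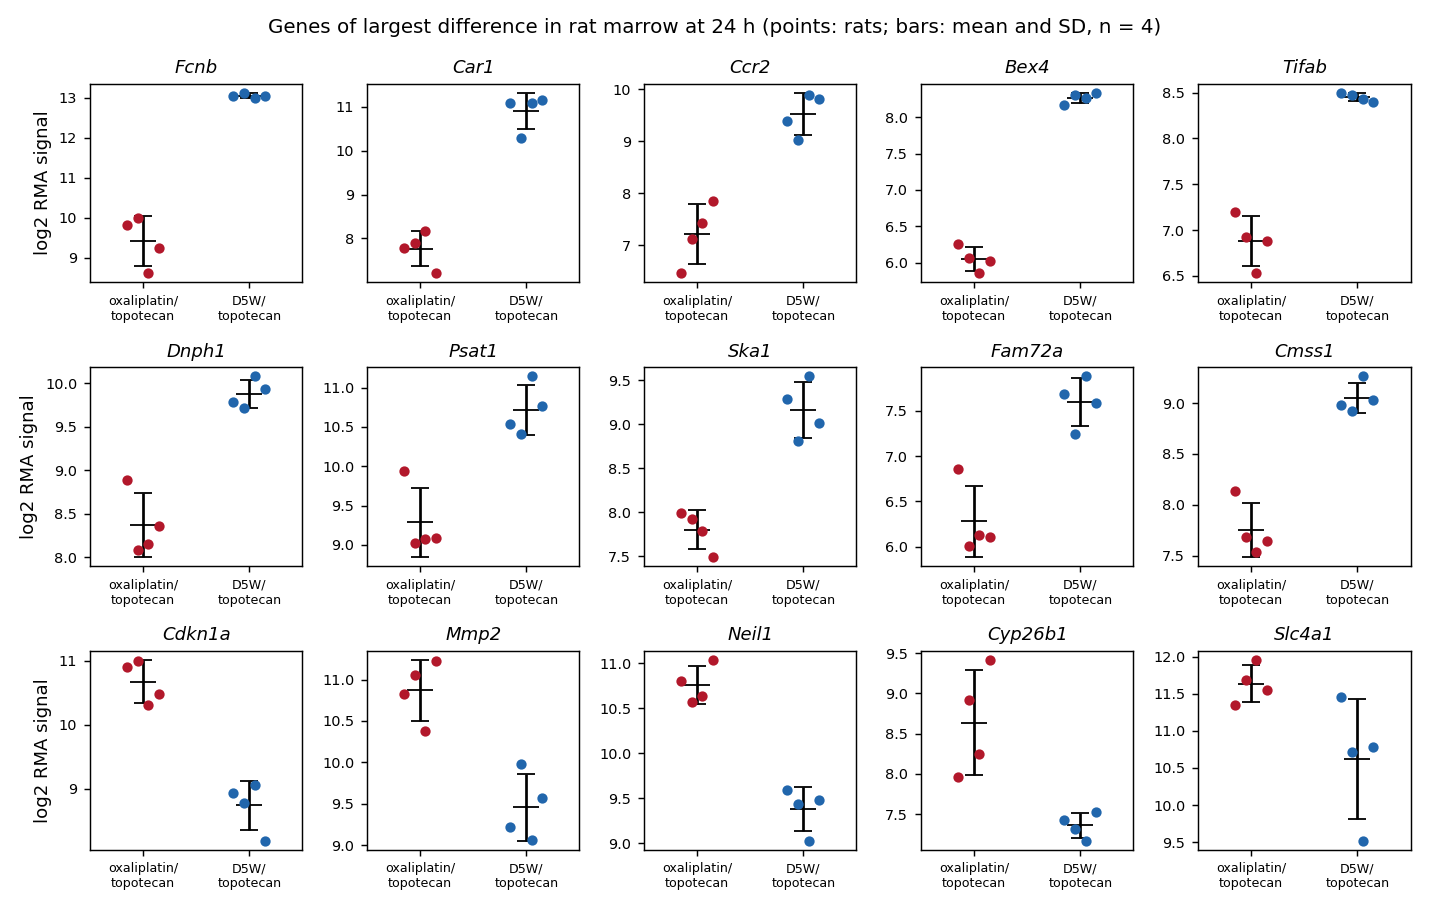
Signals (log2 RMA, vertical axes, 1 scale per gene) of the 10 genes of largest fall and the 5 called higher at 24 h, with oxaliplatin/topotecan rats (red) left of D5W/topotecan rats (blue), a point per rat and bars for mean and SD (n = 4 each). The groups lie apart in every panel but that of Slc4a1, where rat 89 of D5W/topotecan (11.46) lies among the oxaliplatin/topotecan rats.

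The gene lists used from here on were chosen with earlier results of these data known. Mitosis genes fell almost as a whole. Of 62 measured, 53 fell and 0 rose at a limma adjusted p under 0.01 over all probe sets, against 19.3% of all 7810 genes that fell and 1.42% that rose. The median difference was -0.85, and 18 of the 53 were also past a fold of 2. The mean level of the list was 9.03, 8.77, 8.89 and 8.45 in oxaliplatin/topotecan rats and 9.68, 9.36, 9.67 and 9.52 in D5W/topotecan rats, so every oxaliplatin/topotecan rat lay below every D5W/topotecan rat. Among the cyclins and their kinase, Ccnb1, the cyclin that with Cdk1 drives entry into mitosis, had signals of 9.18, 8.99, 9.22 and 8.54 in oxaliplatin/topotecan rats and 10.17, 9.75, 10.50 and 10.27 in D5W/topotecan rats (difference -1.19, SE 0.16). Cdk1 itself had signals of 10.49, 10.01, 10.32 and 9.53 in oxaliplatin/topotecan rats and 11.15, 10.82, 11.44 and 11.10 in D5W/topotecan rats (-1.04, SE 0.14). Neither gene's groups overlapped.

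Ccna2, the cyclin of S phase and G2, was at -1.18 and Ccnb2 at -1.03. In the spindle checkpoint, which holds chromosomes until they are attached, Bub1 was at -1.22, Ttk at -1.11, Bub1b at -1.04 and Mad2l1 at -1.03. Cdc20, the activator of the anaphase-promoting complex on which that checkpoint acts, had signals of 10.04, 9.61, 9.78 and 8.97 in oxaliplatin/topotecan rats and 10.75, 10.65, 10.77 and 10.73 in D5W/topotecan rats (difference -1.12, SE 0.14). Racgap1 and Kif23, which together form the complex that organises the cleavage furrow, were at -1.25 and -1.05, and Birc5 (survivin) and Cdca8, subunits of the chromosomal passenger complex, at -1.05 and -1.03. Top2a, the topoisomerase that untangles chromosomes before they separate, was at -1.01. The 9 members that did not pass were at -0.71 to 0.38, with Cdc25b (0.38) and Gtse1 (0.22) the only members above 0. The sample titles carry a code column whose meaning is not stated. Within column 02 (2 rats a group) the median of the list was -0.66, and within column 04 it was -1.02, with 60 of 62 members below 0 in each. Fitted on the 8 arrays alone, 19 of the 62 passed, and 16 with the code column as a block.

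Promoters of the mitosis genes are shown because the members moved together and because both motifs can be read in them. They come from RefSeq (rat build GRCr8) and run from 250 bases before to 50 bases after the start of the gene, 5′ to 3′ on the strand of the gene. The 4 printed are those with the largest falls among the members that hold both CCAAT and TTTGAA on either strand, and capitals mark these letters or their reverse complements (ATTGG and TTCAAA). Kif22 encodes a chromosome-moving kinesin (chr1:191080829-191081128, minus strand), Cdc20 is described above (chr5:137255750-137256049, minus strand), Ttk encodes the checkpoint kinase Mps1 (chr8:93634389-93634688, plus strand) and Birc5 encodes survivin (chr10:103571896-103572195, plus strand).
Kif22: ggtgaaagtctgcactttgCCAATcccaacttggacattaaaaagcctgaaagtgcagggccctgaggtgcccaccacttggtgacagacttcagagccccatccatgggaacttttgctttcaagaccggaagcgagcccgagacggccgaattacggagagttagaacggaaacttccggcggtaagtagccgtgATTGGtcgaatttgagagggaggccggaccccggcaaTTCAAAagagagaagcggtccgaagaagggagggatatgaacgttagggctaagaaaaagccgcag
Cdc20: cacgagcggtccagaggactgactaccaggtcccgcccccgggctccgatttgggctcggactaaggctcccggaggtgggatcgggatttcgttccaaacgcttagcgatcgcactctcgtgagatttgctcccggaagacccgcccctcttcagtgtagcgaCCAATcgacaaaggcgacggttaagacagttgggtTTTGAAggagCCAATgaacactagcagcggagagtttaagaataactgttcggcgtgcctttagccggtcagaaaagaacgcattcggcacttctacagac
Ttk: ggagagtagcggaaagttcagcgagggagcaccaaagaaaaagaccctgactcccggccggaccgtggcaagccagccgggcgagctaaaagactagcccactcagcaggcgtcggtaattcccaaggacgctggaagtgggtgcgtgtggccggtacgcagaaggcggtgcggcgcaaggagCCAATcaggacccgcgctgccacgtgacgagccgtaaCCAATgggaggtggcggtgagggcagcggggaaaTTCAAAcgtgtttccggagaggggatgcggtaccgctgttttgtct
Birc5: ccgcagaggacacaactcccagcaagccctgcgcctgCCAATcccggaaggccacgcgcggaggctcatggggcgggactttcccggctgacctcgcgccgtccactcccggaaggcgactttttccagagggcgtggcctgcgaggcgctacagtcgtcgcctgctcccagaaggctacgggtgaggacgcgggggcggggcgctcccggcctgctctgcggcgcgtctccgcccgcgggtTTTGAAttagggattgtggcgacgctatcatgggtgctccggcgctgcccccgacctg

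Of 52 mitosis genes with a promoter in the table, 38 (73.1%) held CCAAT and 32 (61.5%) held TTTGAA on either strand, and 26 (50%) held both. Among all 27457 promoters of the table, CCAAT was found in 37.7%, TTTGAA in 18.1% and both in 7.25%. Of 47 promoters of DNA replication genes, 22 (46.8%) had at least 1 of TTTGGCGC, TTTCCCGC and TTTCGCGC, letters of E2F sites, on either strand. These letters were in 1.82% of all promoters and 3.85% of those of mitosis genes. CCAAT was in 25 of the 47 replication promoters (53.2%), also above the share of all promoters, and TTTGAA in 8.51%. Such matches describe the letters in a window and do not show that a factor was bound there. Here and below, members with a promoter were counted whether or not they fell, and the motifs were chosen after values were seen. The shares therefore describe the lists and do not test the differences between these rats.

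**Figure D2:**
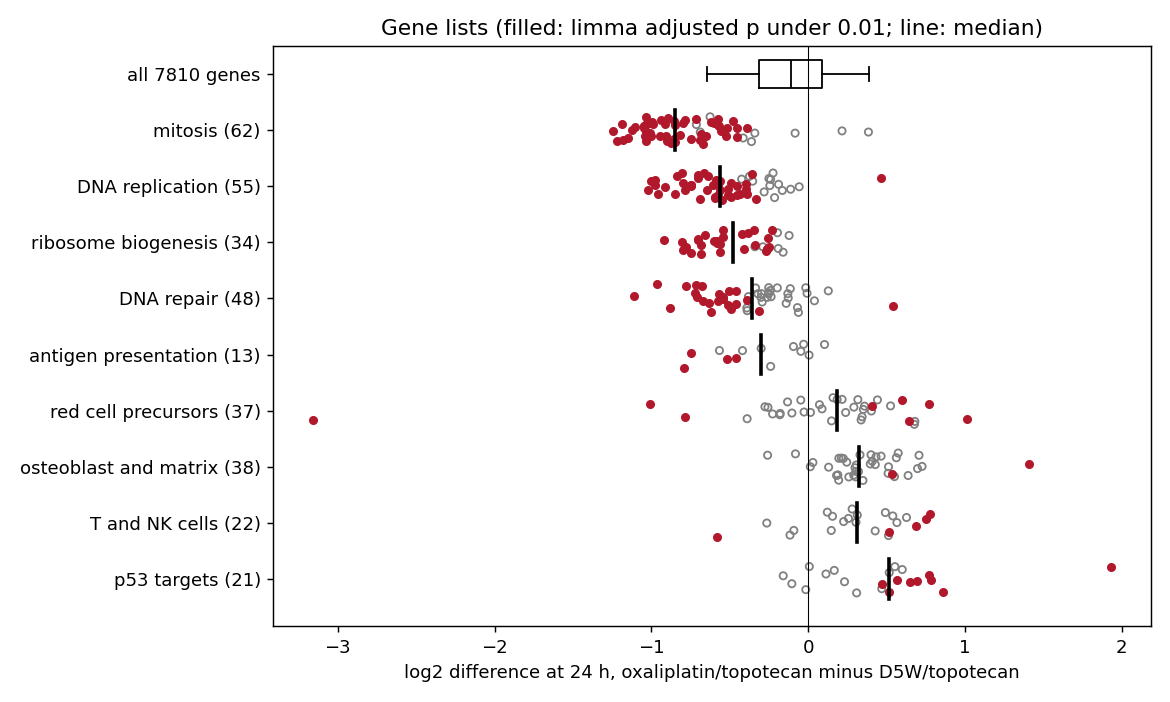
Log2 difference at 24 h, oxaliplatin/topotecan minus D5W/topotecan (horizontal axis), for each measured member of 9 gene lists (number of members in brackets), filled where limma's adjusted p was under 0.01, with a line at the median of the list; the box of all 7810 genes shows median, quartiles and the range from the 5th to the 95th percentile. Mitosis (median -0.85), DNA replication (-0.56) and ribosome biogenesis genes (-0.48) lie left of the median of all genes (-0.11), and p53 targets (0.52) right of it.

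DNA replication genes were lower as well, with 41 of 55 falling, 1 rising and a median of -0.56. These are shares of 74.5% and 1.82%, against 19.3% and 1.42% of all genes. Their mean level was 9.25, 9.02, 8.91 and 8.90 in oxaliplatin/topotecan rats and 9.58, 9.49, 9.57 and 9.58 in D5W/topotecan rats, without overlap. Gins1, a subunit of the GINS complex of the replicative helicase, had signals of 7.68, 7.37, 7.21 and 7.20 in oxaliplatin/topotecan rats and 8.20, 8.28, 8.65 and 8.42 in D5W/topotecan rats (difference -1.02, SE 0.12, limma adjusted p = 8.27e-08). The origin-licensing and helicase genes Orc1, Mcm6 and Mcm4 were at -0.98, -0.96 and -0.80, and the primase gene Prim1 at -0.91. Uhrf1, which carries DNA methylation onto the new strand, was at -0.97, and Rrm1, the large subunit of ribonucleotide reductase, at -0.70. The member that rose was E2f2 (0.46), a transcription factor of the E2F family that is also abundant in red cell precursors. Members at the other end, such as Top1 (-0.06), the target of topotecan, did not pass. Within code columns 02 and 04 the medians were -0.43 and -0.68, and in the fit on the 8 arrays alone 13 members passed. The promoter of Gins1 (chr3:160184670-160184969, plus strand) is printed as the member with the largest fall that holds the E2F letters. Capitals mark them, and here TTTGGCGC overlaps its copy on the other strand.
Gins1: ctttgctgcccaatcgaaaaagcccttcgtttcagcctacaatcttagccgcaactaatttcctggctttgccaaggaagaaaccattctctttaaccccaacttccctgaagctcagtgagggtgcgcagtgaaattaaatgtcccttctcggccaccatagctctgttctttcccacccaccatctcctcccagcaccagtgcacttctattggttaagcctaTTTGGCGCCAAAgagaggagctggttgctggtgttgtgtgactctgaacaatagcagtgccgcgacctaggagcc

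Of 48 DNA repair genes, 22 fell (45.8%, against 19.3% of all genes), 1 rose and the median was -0.36. Those that fell served several pathways. Exo1, a nuclease of mismatch repair and end resection, had signals of 7.39, 7.08, 6.54 and 6.88 in oxaliplatin/topotecan rats and 8.01, 7.89, 8.26 and 8.17 in D5W/topotecan rats (difference -1.11, SE 0.14). The checkpoint kinase genes Chek1 and Chek2 were at -0.97 and -0.88, the base excision genes Apex1 and Ung at -0.78 and -0.72, and Fancd2, a central protein of cross-link repair, at -0.67. Tdp1, which removes trapped topoisomerase I from DNA, was at -0.63. The member that rose was Mgmt (0.54), which takes alkyl groups off guanine. Fitted on the 8 arrays alone, 7 members passed.

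Genes of ribosome assembly and translation fell by less per gene but nearly throughout. Of 34 measured, 28 fell (82.4%, against 19.3% of all genes), 0 rose and the median was -0.48. Fbl, the methyltransferase fibrillarin of the nucleolus, had signals of 11.16, 10.86, 10.53 and 10.89 in oxaliplatin/topotecan rats and 11.80, 11.75, 11.86 and 11.72 in D5W/topotecan rats, without overlap (difference -0.92, SE 0.11, limma adjusted p = 8.27e-08). Polr1b, a subunit of RNA polymerase I, was at -0.81, Nhp2 and Gar1 of the box H/ACA particles at -0.75 and -0.78, nucleolin (Ncl) at -0.70, and Myc, a transcription factor that drives these genes, at -0.70. Ribosomal proteins in the list, such as Rpl3 and Rps3 (both -0.26), were among the smallest falls. The count depended on the scaling, with 17 of 34 falling when arrays were centred on their median, and on the samples in the fit, with 9 passing on the 8 arrays alone and 5 with the code column as a block. The letters CACGTG, an E box of the kind that Myc binds, were in 9 of the 30 promoters of this list that the table holds (30%), against 6.65% of all promoters. Fbl has the largest fall among them (chr1:92597157-92597456, plus strand), and capitals mark the E box.
Fbl: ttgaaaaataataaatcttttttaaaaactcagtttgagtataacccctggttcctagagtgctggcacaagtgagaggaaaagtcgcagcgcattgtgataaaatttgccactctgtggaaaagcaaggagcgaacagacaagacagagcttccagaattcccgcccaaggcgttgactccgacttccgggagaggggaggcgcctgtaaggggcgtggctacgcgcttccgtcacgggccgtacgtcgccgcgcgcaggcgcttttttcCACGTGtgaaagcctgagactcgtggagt

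Among p53 targets, 9 of 21 rose and 0 fell, with a median of 0.52, against 1.42% of all genes that rose. The mean level of the list was 9.19, 9.33, 9.25 and 9.25 in oxaliplatin/topotecan rats and 8.78, 8.71, 8.74 and 8.89 in D5W/topotecan rats, without overlap. After Cdkn1a the largest rise was that of Ephx1, an epoxide hydrolase, with signals of 10.05, 10.45, 10.33 and 10.35 in oxaliplatin/topotecan rats and 8.95, 9.42, 9.89 and 9.46 in D5W/topotecan rats (difference 0.86, SE 0.16). Bbc3 (Puma), which triggers apoptosis at mitochondria, had signals of 9.87, 9.92, 9.70 and 9.79 in oxaliplatin/topotecan rats and 9.04, 8.95, 8.85 and 9.30 in D5W/topotecan rats (difference 0.78, SE 0.12). Phlda3, an inhibitor of Akt signalling, was at 0.77, Ccng1 (cyclin G1) at 0.69, and Mdm2, the ligase that turns p53 over, at 0.57. The stress cytokine gene Gdf15 (0.52), the death receptor gene Fas (0.55) and Tp53inp1 (0.60) did not pass, and their groups overlapped. Within code columns 02 and 04 the medians were 0.52 and 0.59. On the 8 arrays alone 3 members passed, and 5 passed without rats 90 and 96, the D5W/topotecan rats with the highest skeletal muscle signal.

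Red cell precursor genes did not move as a group. Of 37 measured, 5 rose and 3 fell (13.5% and 8.11%, against 1.42% and 19.3% of all genes), with a median of 0.18, and the mean level of the list ran from 9.52 to 10.10 in oxaliplatin/topotecan rats and from 9.46 to 10.00 in D5W/topotecan rats. Car1 and Tfr2, the iron-sensing transferrin receptor 2 (difference -1.01, SE 0.20), fell, as did the globin-switching factor Bcl11a (-0.79). Of the 5 that rose, 3 belong to the membrane of red cells and its skeleton. Epb41, which ties spectrin to actin, had signals of 11.73, 12.12, 12.09 and 12.19 in oxaliplatin/topotecan rats and 11.58, 11.20, 11.03 and 11.24 in D5W/topotecan rats (difference 0.77, SE 0.12, limma adjusted p = 1.16e-05). Slc4a1 was at 1.02, Add2 (beta adducin) at 0.64, Hemgn (hemogen) at 0.60 and Bnip3l, which removes mitochondria from maturing red cells, at 0.40, and the groups overlapped in Slc4a1, Add2 and Hemgn. The number that rose depended on the settings, with 9 when arrays were centred on their median, 8 with a second quantile normalization and 0 in a limma fit of the 8 arrays with the code column as a block (6 higher and 5 lower at an unadjusted p under 0.05), a fit in which 281 of all 7810 genes fell and 10 rose. Of 16 heme synthesis enzymes 0 passed in limma (2 higher and 1 lower at an unadjusted p under 0.05).

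Oxaliplatin without topotecan gave another picture in these red cell genes. In oxaliplatin/NaCl rats against D5W/NaCl rats, which share no animal with the comparison above, 32 of the 37 fell and 0 rose, with a median of -1.18, against 28.3% of all genes that fell and 21.4% that rose. The difference between the effects of oxaliplatin with and without topotecan (a difference of differences in the same limma fit) was above 0 at an adjusted p under 0.01 for 28 of 37 genes and below 0 for 0, against 5.52% and 7.55% of all genes. For Slc4a1 it was 2.00 (SE 0.31, limma adjusted p = 8.43e-06), from 1.02 with topotecan and -0.99 without. For Car1 it was 2.19, from -3.16 and -5.35, and for Tfr2 1.90, from -1.01 and -2.91. Signals of Car1 averaged 7.76 ± 0.40 in oxaliplatin/topotecan rats, 10.92 ± 0.41 in D5W/topotecan rats, 8.44 ± 0.87 in oxaliplatin/NaCl rats and 13.79 ± 0.09 in D5W/NaCl rats (SD, n = 4, 4, 4 and 3). With topotecan alone (D5W/topotecan against D5W/NaCl) 33 of the 37 genes were lower (against 18.6% of all genes), with a median of -2.10. With both drugs (oxaliplatin/topotecan against D5W/NaCl) 32 were lower (against 35.5% of all genes), with a median of -1.76. These comparisons share the D5W/NaCl rats, which have no code column in common with either topotecan group. Drug and code column therefore cannot be told apart in them. In oxaliplatin/NaCl rats 21 of 26 skeletal muscle genes also rose against D5W/NaCl rats, with rats 41 and 42 of oxaliplatin/NaCl highest. Without these 2 rats the difference was again above 0 for 28 of the 37 red cell genes and below 0 for 0, with 1.86 for Slc4a1 and 1.56 for Car1.

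**Figure D3:**
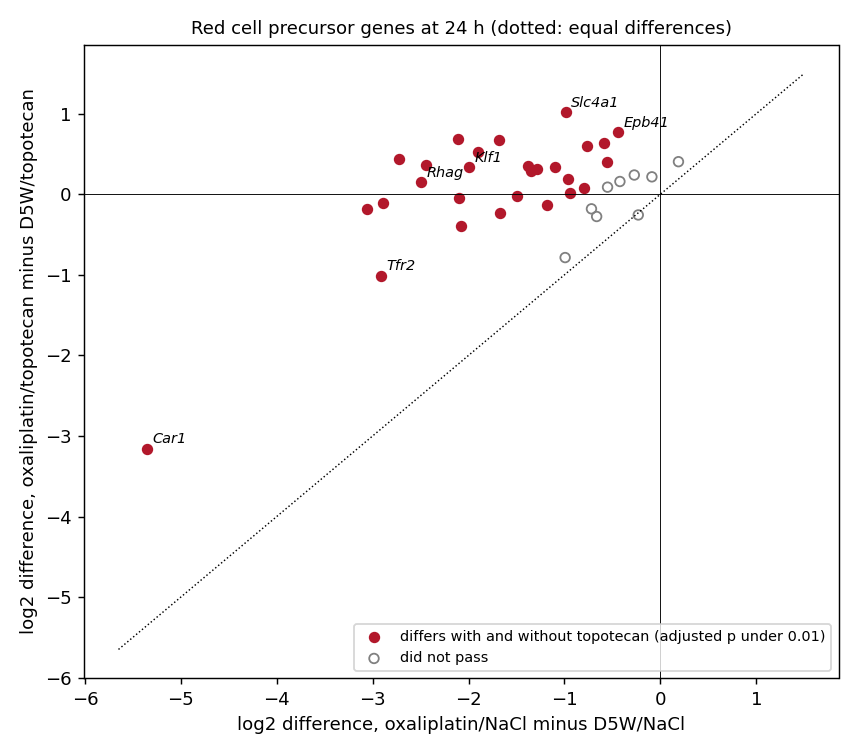
Log2 differences of the 37 red cell precursor genes at 24 h, with oxaliplatin/topotecan minus D5W/topotecan on the vertical axis and oxaliplatin/NaCl minus D5W/NaCl on the horizontal axis, filled where the difference between both passed in limma (28 genes), with a dotted line for equal differences. The filled genes lie above the line, with Car1 at -3.16 and -5.35.

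Other lists and single genes also departed from the effect of oxaliplatin without topotecan. Heme synthesis enzymes had a difference of differences above 0 in 12 of 16 and below 0 in 1 (limma adjusted p under 0.01). Resident macrophage genes were below 0 in 13 of 19, and osteoblast and bone matrix genes in 10 of 38. DNA replication genes were above 0 in 11 of 55 and DNA repair genes in 9 of 48. In these 4 lists 0 went the other way, against 5.52% of all genes above 0 and 7.55% below. Of the 77 called probe sets, 13 departed at an adjusted p under 0.01, against 11.7% of all probe sets. The 77 were selected on the difference with topotecan, which also enters this contrast, so their share is no independent test. Phgdh, the first enzyme of serine synthesis, was at -1.15 in oxaliplatin/topotecan against D5W/topotecan rats and at 0.04 in oxaliplatin/NaCl against D5W/NaCl rats (difference of differences -1.19, limma adjusted p = 0.00135). Its signals were 9.85, 9.28, 9.08 and 9.14 in oxaliplatin/topotecan rats and 10.47, 10.51, 10.65 and 10.34 in D5W/topotecan rats. Msra, which repairs oxidised methionine, was at -1.23 with topotecan and 0.37 without it (difference of differences -1.60), Sh2d5 at -1.23 and 0.27, and Fcnb at -3.65 and -2.22 (-1.43). Among p53 targets, Phlda3 was at 0.77 with topotecan and 2.18 without it (-1.41), and Gdf15 at 0.52 and 3.04 (-2.53). Bex4 went the other way, at -2.21 with topotecan and -4.67 without it (2.47), and its level averaged 6.06 in oxaliplatin/topotecan rats and 5.93 in oxaliplatin/NaCl rats. Over all 12532 probe sets both effects of oxaliplatin correlated at Pearson r = 0.545 and Spearman rho = 0.586, a description across probe sets that are not independent, and of the 77 called, 68 had the same direction in both. In oxaliplatin/NaCl against D5W/NaCl rats 60 of 62 mitosis genes (median -1.08) and 53 of 55 replication genes (-1.01) fell, against 28.3% of all genes. There 11 of 21 p53 targets rose and 2 fell (median 0.48), against 21.4% of all genes that rose. In D5W/topotecan against D5W/NaCl rats, which share no code column, 61 of 62 mitosis genes fell (median -1.21), against 18.6% of all genes.

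Among mature neutrophil genes 0 of 13 passed in limma (7 higher and 0 lower at an unadjusted p under 0.05), yet all 13 lay above 0, with a median of 0.31, and all 13 did so within each code column. The mean level of this list was 10.95, 10.79, 10.75 and 11.04 in oxaliplatin/topotecan rats and 10.60, 10.40, 10.46 and 10.58 in D5W/topotecan rats. The groups did not overlap in the mean of the list, nor in 6 of its members, and 3.32% of all probe sets were higher without overlap. With either rescaling 6 of the 13 rose. Over all 12532 probe sets 184 rose at this threshold as deposited, 511 with a second quantile normalization and 529 with centring. Cxcr2, a chemokine receptor by which neutrophils leave the marrow, had signals of 10.68, 10.61, 10.57 and 11.09 in oxaliplatin/topotecan rats and 10.21, 9.89, 10.21 and 10.36 in D5W/topotecan rats (difference 0.57, SE 0.20, limma adjusted p = 0.0263).

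In monocytes, granules and antigen-presenting cells, changes were found in some members. Of 25 monocyte genes 2 fell (8.00%, below the 19.3% of all genes), Ccr2 and the lysosomal thiol reductase gene Ifi30 (-0.31), and defining markers such as Csf1r (-0.10) and Cd14 (-0.18) did not pass. Of 21 genes of secondary and tertiary granules only Fcnb fell, while Camp (0.16) and Lcn2 (0.41) did not pass. Of 13 genes of dendritic cells and antigen presentation 4 fell (30.8%, against 19.3% of all genes), Clec10a (-0.79), Irf8 (-0.75), RT1-DMb (-0.52) and RT1-DMa (-0.46), the last a chain that helps load peptides onto class II molecules. Only 1 of the 13 fell when arrays were centred on their median, 2 with a second quantile normalization and 1 with the code column as a block. The mean level of the list ran from 10.53 to 10.75 in oxaliplatin/topotecan rats and from 10.84 to 11.08 in D5W/topotecan rats, without overlap. Irf8, the transcription factor of monocyte and dendritic cell precursors, had signals of 10.10, 9.78, 9.69 and 9.68 in oxaliplatin/topotecan rats and 10.61, 10.66, 10.34 and 10.62 in D5W/topotecan rats. Myb, a transcription factor of early blood progenitors, was lower without overlap (difference -1.05, SE 0.14).

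Mast cell protease genes lay among the called genes, with Mcpt10 at -1.19, Mcpt1 at -1.07 and Mcpt9 at -1.03. Signals of Mcpt10 were 10.81, 11.04, 11.06 and 11.15 in oxaliplatin/topotecan rats and 12.08, 12.13, 12.19 and 12.42 in D5W/topotecan rats, whereas the rats overlapped for Mcpt1. These paralogues are alike in sequence, and their probe sets may share signal. Of 17 genes of mast cells, basophils and eosinophils 2 fell (11.8%, below the 19.3% of all genes) and 0 rose, and Cpa3 (-0.57) and Ms4a2 (-0.28) did not pass. T cell and NK cell genes were higher in part, with 4 of 22 rising (18.2%, against 1.42% of all genes) and 1 falling and a median of 0.31. With the code column as a block 2 rose. The mean level of the list ran from 8.96 to 9.05 in oxaliplatin/topotecan rats and from 8.55 to 8.75 in D5W/topotecan rats, without overlap. Cd3e, a chain of the T cell receptor complex, had signals of 9.18, 8.99, 9.06 and 9.21 in oxaliplatin/topotecan rats and 8.26, 8.35, 8.26 and 8.46 in D5W/topotecan rats (difference 0.78, SE 0.21, limma adjusted p = 0.00410). Il2rb (0.75), Cd247 (0.69) and Lck (0.52) rose with it, and the granule protein gene Nkg7 (-0.58) fell. Of 23 megakaryocyte genes, 20 endothelial genes and 25 stromal genes 0 passed in limma (1, 5 and 3 higher and 0, 2 and 1 lower at an unadjusted p under 0.05). Megakaryocyte genes differed in opposite directions within the code columns, with 23 of 23 above 0 and a median of 0.51 in column 02, and 21 of 23 below 0 and a median of -0.24 in column 04. Their mean level was 11.69, 11.85, 11.79 and 11.71 in oxaliplatin/topotecan rats and 10.88, 11.58, 12.15 and 11.93 in D5W/topotecan rats, with rat 89 the lowest. Of 38 osteoblast and bone matrix genes 2 rose, Mmp2 and Col6a1 (0.54).

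Marrow samples can carry muscle from the bone surface. None of 26 skeletal muscle genes passed in limma (0 at an unadjusted p under 0.05), their median was -0.11, and the mean level of the list ran from 6.21 to 6.40 in oxaliplatin/topotecan rats and from 6.06 to 6.98 in D5W/topotecan rats, with rats 90 and 96 of D5W/topotecan highest. Without these 2 rats 123 probe sets were called, 22 higher and 101 lower, and 52 of 62 mitosis genes fell. The mean level of the osteoblast and bone matrix list ran from 9.97 to 10.21 in oxaliplatin/topotecan rats and from 9.44 to 10.23 in D5W/topotecan rats, with Mmp2 one of its members.

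Few genes of the proliferation lists had passed before 24 h. At 1 h 4 probe sets were called between oxaliplatin/topotecan and D5W/topotecan rats (7 without rat 67 or rat 68 of oxaliplatin/topotecan, 2 without rat 91 and 17 without rat 92 of D5W/topotecan; 0.0319%), and at 6 h 64 (0.511%), of which 6 were higher and 58 lower (13 higher without rat 69 and 3 without rat 70 of oxaliplatin/topotecan). Of the 77 called at 24 h, 3 were also called in the same direction at 6 h, none of which carries a single gene symbol. Mitosis genes had medians of -0.02 at 1 h, 0.05 at 6 h and -0.85 at 24 h, with 0 of 62 past the threshold at 1 h and 6 h in limma (0 higher and 1 lower at 1 h, and 2 higher and 3 lower at 6 h, at an unadjusted p under 0.05), against 0.166% of all genes past it in either direction at 1 h, and 3.65% lower and 0.320% higher at 6 h. Replication genes had medians of -0.06 at 1 h and -0.07 at 6 h, and 2 of 55 were lower at 6 h, Pola1 (-0.79) and Prim2 (-0.58), which encode subunits of the polymerase alpha and primase complex (8 lower and 2 higher at an unadjusted p under 0.05). Of 48 DNA repair genes 5 were lower at 6 h. The difference between 24 h and 6 h was itself tested. It was below 0 for 37 of 62 mitosis genes, 16 of 55 replication genes and 12 of 34 ribosome genes, against 6.11% of all genes (1.13% above 0). Titles of the 24 h arrays carry another code prefix than those of 1 h and 6 h, so time and prefix cannot be told apart. Ccnb1 was at -0.02, 0.16 and -1.19 at 1, 6 and 24 h. The p53 targets had medians of 0.04, 0.30 and 0.52, with 0, 2 and 9 of 21 rising, and for 1 member the difference between 24 h and 6 h passed. Fcnb was at -0.18, -0.66 and -3.65, Car1 at 0.00, -0.33 and -3.16, and Ccr2 at -0.60, -0.37 and -2.32. Tifab had already fallen at 1 h (-1.12, limma adjusted p = 0.00211), and was at -0.53 and -1.57 at 6 and 24 h. The count of probe sets that differed between 24 h and 6 h was 94 (0.750%), and 147 without rat 65 of oxaliplatin/topotecan.

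**Figure D4:**
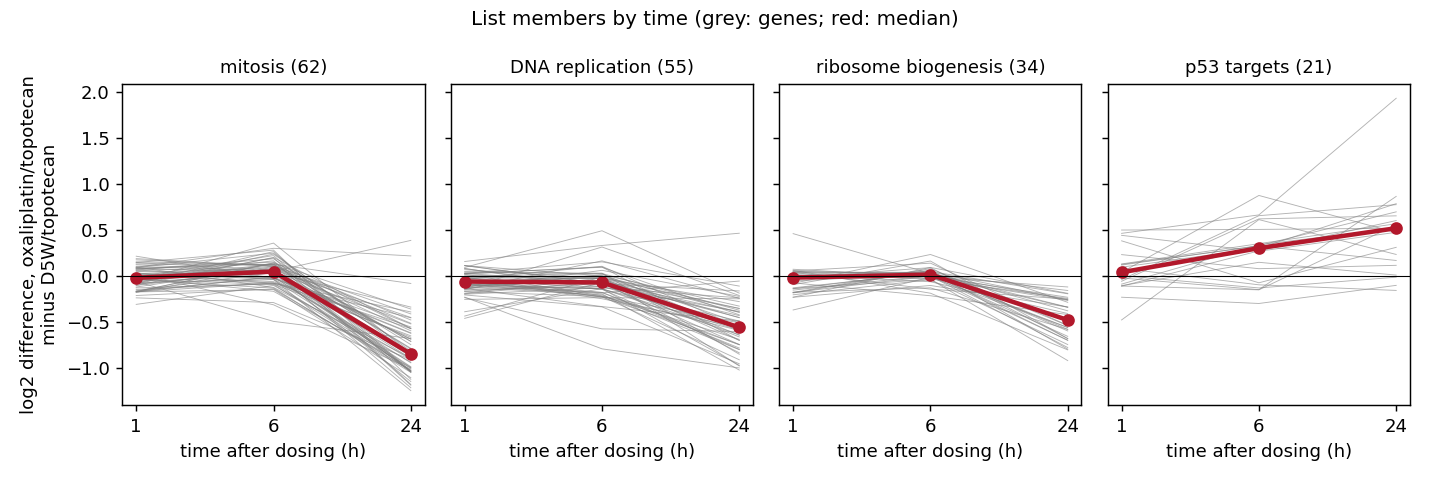
Log2 difference, oxaliplatin/topotecan minus D5W/topotecan (vertical axis), at 1, 6 and 24 h after dosing (horizontal axis, not to scale) for each member of 4 gene lists (grey lines, number of members in brackets) and their median (red). The medians of mitosis, replication and ribosome genes are 0.05, -0.07 and 0.01 at 6 h and -0.85, -0.56 and -0.48 at 24 h, single replication genes lie as low as -0.79 at 6 h, and p53 targets are at medians of 0.04, 0.30 and 0.52.

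Other rats received the drugs in the other order, and most of the 77 called probe sets passed there too. In topotecan/oxaliplatin against topotecan/D5W rats at 24 h, which share no animal with the comparison above, 351 probe sets were called (2.80%), 221 higher and 130 lower, with 538 calls without rat 29 and 206 without rat 35 of topotecan/D5W. Of the 77 probe sets, 74 had the same direction there and 67 also an adjusted p under 0.01, against 29.6% of all probe sets that passed in either direction. Their median was -1.08 with oxaliplatin before topotecan and -1.21 with oxaliplatin after it. The correlation across all 12532 probe sets was Pearson r = 0.740 and Spearman rho = 0.755. Mitosis genes had a median of -1.06, with 58 of 62 falling, and p53 targets one of 0.58, with 10 of 21 rising, against 21.1% of all genes falling and 12.5% rising. Fcnb was at -3.91, Car1 at -3.77, Ccr2 at -2.72, Bex4 at -2.77 and Cdkn1a at 2.26. Neil1 (0.69, limma adjusted p = 0.0133), Msra (-0.87, adjusted p = 0.0161) and the connexin gene Gja3 (-0.34, adjusted p = 0.236) were among the 10 of the 77 that did not pass there, as was Slc4a1 (0.34).

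For genes of megakaryocytes and of the cells that line and support the marrow, other numbers passed in each order. Among all genes, 12.5% rose with oxaliplatin second and 1.42% with oxaliplatin first. Of 23 megakaryocyte genes 15 rose in topotecan/oxaliplatin against topotecan/D5W rats (median 0.60), and 0 in oxaliplatin/topotecan against D5W/topotecan rats (median 0.10). Of 20 endothelial genes 14 rose with oxaliplatin second (median 0.75) and 0 with oxaliplatin first (0.17), and of 25 stromal genes 15 (0.70) and 0 (0.15). Of 11 contractile genes of smooth muscle 7 rose with oxaliplatin second (0.56) and 0 with oxaliplatin first (0.17, with 2 higher and 0 lower at an unadjusted p under 0.05), and of 38 osteoblast and bone matrix genes 15 (0.40) and 2 (0.33). In the limma test of the difference between orders 0 genes of these 5 lists passed. At an unadjusted p under 0.05 there were 8, 11, 7, 6 and 4 lower when oxaliplatin came first and 0 higher. Over all 12532 probe sets, 1348 were at an unadjusted p under 0.05 in either direction. Rat 89 was the lowest D5W/topotecan rat in the mean levels of the megakaryocyte, endothelial, stromal and contractile lists. Its endothelial mean was 8.20, against 8.80 to 8.95 in the other D5W/topotecan rats. Its stromal mean was 9.50 (others 9.97 to 10.14) and its contractile mean 9.03 (others 9.56 to 9.78). Megakaryocyte genes also differed in opposite directions within the code columns, as given above.

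When both orders were set against each other, 5 probe sets (0.0399%) differed at an adjusted p under 0.01 and a fold above 2, and none of the 77 did. These 5 were named after their values were seen: Faxdc2, Ackr4, Plac9, Mmp23 and C1qtnf2, all lower when oxaliplatin came first (differences of -1.44, -1.41, -1.35, -1.20 and -1.18). Faxdc2 was at -0.50 with oxaliplatin first and 0.93 with oxaliplatin second. The count was unstable, with 0 calls when rat 71 of oxaliplatin/topotecan, rat 95 or 96 of D5W/topotecan, rat 59 or 60 of topotecan/oxaliplatin, or rat 35 or 36 of topotecan/D5W was left out, and 114 without rat 89 of D5W/topotecan. Of 49 interferon response genes 1 (Rsad2, 0.62) rose with oxaliplatin before topotecan (median 0.45) and 27 with oxaliplatin after it (median 0.83). Among all genes, 1.42% rose with oxaliplatin before topotecan and 12.5% with oxaliplatin after it. In the limma test of the difference between orders 0 of 49 passed (3 lower at an unadjusted p under 0.05), and 0.0640% of all genes did.

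**Figure D5:**
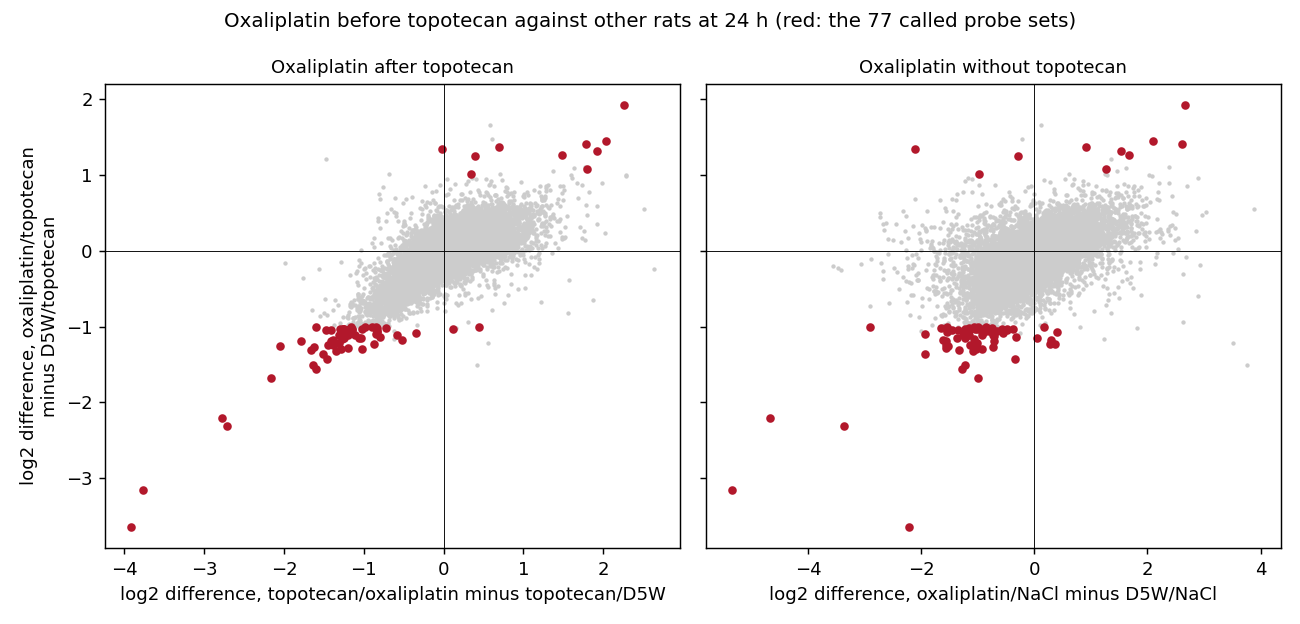
Log2 differences of all 12532 probe sets at 24 h, with oxaliplatin/topotecan minus D5W/topotecan on the vertical axes, against topotecan/oxaliplatin minus topotecan/D5W (left panel) and oxaliplatin/NaCl minus D5W/NaCl (right panel) in other rats, the 77 called probe sets in red. On the left 74 of the 77 lie in the quadrants of equal direction, and on the right 68.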

How the data were processed

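Bone marrow RNA of 93 rats was hybridised to Affymetrix rat expression arrays, 1 per rat. Per the labels and the study's methods, the authors deposited log2 signals made by RMA and filtered with pvac; the table holds 12560 probe sets, and array medians run from 8.79 to 9.30. The number of arrays limits the precision, and replicates are told apart only by the animals' own numbers and by a code column of unstated meaning in the titles. After removal of 28 control probe sets, 12532 were tested; 10002 carried 1 gene symbol, 292 several and 2238 none, by GEO's platform annotation. Each of 7810 genes was read through the probe set with the highest average. Groups followed the drugs and times in the labels.

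Differences were fitted with limma 3.58.1 (R 4.3.3) over the oxaliplatin/topotecan, D5W/topotecan, oxaliplatin/NaCl and D5W/NaCl rats of 1, 6 and 24 h, with Benjamini-Hochberg adjustment over all probe sets; the other infusion order was fitted in its own 4 treatments, and the difference between orders in all 8. The scripts were tested on simulated data. Single genes were also compared by an exact permutation test. Called genes were named, with full values for up to 10 of largest change each way, as were members of gene lists. The members and lists were chosen with earlier results of these data known. Alternatives covered the samples fitted, scaling, array weights, the dimmest 0.25 of probe sets, thresholds and each rat left out. Promoters are from RefSeq (GRCr8); motifs were chosen after values were seen. Tables and figures were made with Python 3.11.15, pandas 2.3.3, numpy 2.4.6 and matplotlib 3.10.9.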

Additional observations from a re-analysis of the deposited data

Results flagged for a closer look

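In 9 of the 15 genes given in full the difference between oxaliplatin/topotecan and D5W/topotecan rats was itself different at 24 h and at 6 h (limma, adjusted p under 0.01). The change between these times was -2.99 for Fcnb, -2.82 for Car1, -1.95 for Ccr2, -2.05 for Bex4, -1.04 for Tifab, -1.38 for Dnph1, -1.57 for Ska1, -1.12 for Fam72a and 1.27 for Neil1. Among all genes, 6.11% passed below 0 and 1.13% above 0. The difference made by oxaliplatin also differed with and without topotecan, by -1.43 for Fcnb, 2.19 for Car1, 2.47 for Bex4 and 2.00 for Slc4a1. Here 7.55% of all genes passed below 0 and 5.52% above 0. The 15 genes were picked by their difference at 24 h, which enters both tests, so these counts are no independent support.

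Single rats stood apart in 4 cases, by the gap to the nearest rat over the range of the group (past Dixon's critical value for 4 rats, as chance alone passes in about 1 group of 20). Both groups were searched for every gene given in full and for several list means, so some cases are due by chance. Psat1 and Fam72a in oxaliplatin/topotecan rats had ratios of 0.934 and 0.862, in both through rat 65. Car1 in D5W/topotecan rats had a ratio of 0.914 and the mean of the DNA replication genes in D5W/topotecan rats one of 0.889, in both through rat 90. For the replication genes rat 90 stood at 9.49, close to the 9.57 to 9.58 of the other D5W/topotecan rats.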

How the results depend on the processing

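No paired analysis was possible because each rat has a number of its own, shared with no rat of the other group. All 201 genes followed through the alternatives kept their direction where they were tested, and 83 kept their call on the 8 arrays alone, 74 with the code column as a block and 2 within either column. The 77 calls became 49 with the code column as a block, 2 within column 02, 2 within column 04, 123 without rats 90 and 96, 2110 with no fold minimum, and 56 to 123 with a rat left out, the most without rat 65 of oxaliplatin/topotecan. The 10 higher became 5 on the 8 arrays alone, 4 with the block, 0 and 0 within columns, 6 without dim probe sets, 22 without rats 90 and 96, 21 with quantiles, 20 with centring, 184 with no fold minimum and 7 to 15 with a rat left out. The 67 lower became 2 and 2 within columns, 101 without rats 90 and 96, 33 with centring, 1926 with no fold minimum and 48 to 108 with a rat left out. The causes were not tested, beside the fewer samples of some fits.

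On the 8 arrays alone, with the block, and within each column, the counts were 19, 16, 0 and 0 for mitosis (53), 13, 13, 0 and 0 for replication (41), 9, 5, 0 and 0 for ribosome (28), 7, 8, 0 and 0 for repair (22) and 3, 4, 0 and 0 for p53 targets (9). Among all 7810 genes, 281 fell and 10 rose with the block, and 2 fell and 0 rose within each column. Centring gave 17 ribosome genes, and 5 p53 targets passed without rats 90 and 96. With a rat left out these counts ran from 45 to 54, 38 to 42, 21 to 28, 18 to 22 and 6 to 10.

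At 1 h, the 4 calls became 18 with array weights, 12 at an adjusted p under 0.05, 30 with no fold minimum and 2 to 17 with a rat left out. At 6 h, the 64, 6 higher and 58 lower became 513, 38 and 475 with no fold minimum, and 44 to 72, 3 to 13 and 40 to 65 with a rat left out; array weights gave 10 higher. The 94 differences between 24 h and 6 h became 760 with no fold minimum and 67 to 147 with a rat left out. After topotecan, the 351, 221 higher and 130 lower became 3707, 1446 and 2261 with no fold minimum, and 206 to 538, 130 to 356 and 76 to 182 with a rat left out. The 5 differences between orders became 0 with a trended and robust prior, 46 with array weights, 0 with centring, 23 at an adjusted p under 0.05 and 0 to 114 with a rat left out. The 592 differences with and without topotecan became 908 with array weights, 1468 with no fold minimum and 531 to 763 with a rat left out.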

Other observations

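Genes that supply growing cells were also lower in oxaliplatin/topotecan rats than in D5W/topotecan rats at 24 h. These lists were chosen after values were seen, and their counts stand beside the 19.3% of all genes that fell and the median of -0.11 over all genes. Of 13 enzymes of serine, glycine and one-carbon metabolism 9 fell and 0 rose (median -0.74), among them Psat1 (-1.43), Phgdh (-1.15), Ahcy (-0.83) and Shmt2 (-0.66). In D5W/topotecan against D5W/NaCl rats, which have no code column in common, the median of this list was -0.05. Of 16 enzymes of purine and pyrimidine synthesis 11 fell (median -0.48), with Ppat, the first committed step of purine synthesis, at -0.90. Of 16 aminoacyl-tRNA synthetases 10 fell (median -0.47), but 6 when arrays were centred on their median, 7 with a second quantile normalization and 2 in a fit of the 8 arrays with the code column as a block, in which 281 of all 7810 genes fell. With the block 6 of the 13 serine, glycine and one-carbon enzymes and 5 of the 16 purine and pyrimidine enzymes fell.

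Mitochondrial ribosomal proteins fell in 56 of 72 genes (median -0.47), with a mean level of 9.69, 9.57, 9.49 and 9.60 in oxaliplatin/topotecan rats and 9.94, 9.96, 10.29 and 10.03 in D5W/topotecan rats. Mrpl12 was at -0.96. Subunits of mitochondrial protein import fell in 17 of 21 genes (median -0.56), with Timm8a1 at -1.15. With the code column as a block these counts were 8 of 72 and 3 of 21, and with centring 42 and 13. Proteins of the cytosolic ribosome fell in 18 of 37 genes (median -0.19) and proteasome subunits in 22 of 36 (median -0.32). With centring these became 2 of 37 (median -0.07) and 12 of 36 (median -0.20), with a second quantile normalization 13 and 15, and with the block 0 in both lists (17 and 23 lower at an unadjusted p under 0.05 in limma).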
